A study of Mus musculus with 8 samples.

Results

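The genes described here are 34 genes of cholesterol and fatty acid synthesis and of their control in mouse CD4+ T cells. They were taken by gene name from a table of 52636 rows, by a list of names of the pathway whose rule sets no threshold on a value, and all 34 were found, each annotated as a protein coding gene in GENCODE M21. The list holds 5 genes of sterol sensing and transcription, 17 enzymes from the start of the mevalonate pathway to cholesterol, 3 genes of sterol efflux and uptake control, 1 sterol transporter and 8 fatty acid genes. RNA was sequenced from sorted spleen Tregs (CD4+ Foxp3+) and Tconvs (CD4+ Foxp3-), 200000 cells a sample. The cells came from CD11c-Cd70tg;CD27+/- Foxp3 reporter mice (CD70Tg) and CD27+/- mice (controls), all 6 to 8 weeks old. According to the methods, CD25+ cells were depleted before the sort for Tconvs but not for Tregs. The subsets thus also differ in this step, whose part in the values was not tested. In the CD70Tg mice, the transgene is driven by the CD11c promoter, so that its intended site of expression is the dendritic cell and not the T cells that were sequenced, and both genotypes carry 1 functional copy of Cd27, the receptor for CD70. Each of the 4 groups was sequenced as 2 libraries, called a and b below in the order of the table, and the comparisons ask how each subset differs between CD70Tg and control mice. How many mice stand behind a library was not stated in the sources used here, so that the p-values measure the spread between these libraries, which may be technical.

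Cells make cholesterol from acetyl-CoA through mevalonate, squalene and lanosterol, and make fatty acids from the same precursor. When sterols are scarce in the endoplasmic reticulum, the escort protein SCAP carries the SREBP factors to the Golgi, where they are cleaved and released to switch on the enzymes of both pathways, and when sterols are plentiful the INSIG proteins hold this complex back. Excess sterol in turn activates the LXR receptors, which raise the efflux pumps ABCA1 and ABCG1 and the ligase MYLIP, which removes lipoprotein receptors from the surface. T cells are known to switch on the SREBP programme when they are activated and need membrane to divide.

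The sequence upstream of the start is shown for 4 members that lay lower in CD70Tg than in control Tconvs, to set the letters of their promoters beside their values. Of the 34 members, 26 matched RefSeq promoter windows of 300 bases (GRCm38.p6), with 34 windows in all because some genes have several starts. Shown are the bases before the start that lie outside the gene's own GENCODE exons, 5′ to 3′, with every TCACNCCAC, CCAAT and CACGTG in capitals (as written or as its reverse complement, so that CCAAT also appears as ATTGG). Hmgcs1 is from chr13:119690101-119690350 on the plus strand, Mvk from chr5:114444019-114444268 on the plus strand, Insig1 from chr5:28071162-28071362 on the plus strand and Cyp51 from chr5:4104747-4104947 on the minus strand.
Hmgcs1: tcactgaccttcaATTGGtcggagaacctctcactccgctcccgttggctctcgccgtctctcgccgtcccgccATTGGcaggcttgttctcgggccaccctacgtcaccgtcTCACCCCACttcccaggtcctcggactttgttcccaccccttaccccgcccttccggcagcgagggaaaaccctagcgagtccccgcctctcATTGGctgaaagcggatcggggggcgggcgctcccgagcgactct
Mvk: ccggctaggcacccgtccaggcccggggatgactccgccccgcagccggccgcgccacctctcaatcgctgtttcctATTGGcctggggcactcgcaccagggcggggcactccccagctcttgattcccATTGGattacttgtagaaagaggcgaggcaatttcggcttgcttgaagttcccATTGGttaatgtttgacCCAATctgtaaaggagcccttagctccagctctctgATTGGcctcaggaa
Insig1: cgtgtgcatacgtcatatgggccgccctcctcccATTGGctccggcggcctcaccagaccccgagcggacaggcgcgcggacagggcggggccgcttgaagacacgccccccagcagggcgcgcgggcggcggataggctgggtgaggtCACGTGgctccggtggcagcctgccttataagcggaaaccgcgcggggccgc
Cyp51: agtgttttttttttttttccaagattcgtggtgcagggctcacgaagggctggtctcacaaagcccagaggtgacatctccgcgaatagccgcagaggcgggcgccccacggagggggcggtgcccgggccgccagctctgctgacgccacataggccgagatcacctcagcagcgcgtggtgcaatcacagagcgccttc

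The stretch of Hmgcs1 holds 1 match to the sterol regulatory element core TCACNCCAC and 3 CCAAT boxes, and that of Mvk 5 CCAAT boxes. That of Insig1 holds 1 CCAAT box and 1 E-box CACGTG. The printed stretch of Cyp51 holds none of these letters, but its full window has a CCAAT at -29 from the start, in the part left out as exon. Counted on both strands over the full windows, TCACNCCAC was found in 1 of the 34 member windows (2.94%) and in 1.24% of all 32851 windows. CCAAT, the letters bound by NF-Y, stood in 22 member windows (64.7%, against 37.4% of all), CACGTG in 7 (20.6%, against 7.15%) and the GC box GGGCGG in 26 (76.5%, against 35.7%). No sites of different motifs overlapped in the member windows. These matches describe the letters only and were not related to binding.

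The totals of the table were close to 20 M in every library because of its scaling, while the numbers of reads on genes, estimated from the smallest step between low values, lay between 6.94 and 33.34 M in the Tconv libraries and between 1.92 and 4.56 M in the Treg libraries. A value of 60, the minimum asked of 2 libraries for a gene to be tested, was reached by 33 of the 34 members and by 12816 genes in all. Fads2, the delta-6 desaturase, was the exception, with values of 6, 3, 0 and 6 in the Tconv libraries (control a and b, CD70Tg a and b) and 0, 5, 0 and 0 in the Treg libraries. The members tested held between 11 and 643 reads in the shallowest library, CD70Tg Treg a, so that their values there carry the largest counting error. Between the 2 libraries of a group, the median distance of the members was 0.13 to 0.17 on the log2 scale. The sort was reflected in Foxp3, at 19769 to 21367 in Tregs and 1039 to 1497 in Tconvs, and the markers Cd3e and Cd4 were at 11384 or more in all 8 libraries. In a sorted bulk sample, fewer cells that use a gene and less RNA of it per cell cannot be told apart.

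Few of the 33 members tested passed the test in either subset (limma on log2(value + 5), adjusted p under 0.05 over all 12816 genes). In Tconvs, 1 member was higher (Abcg1, with 6.82% of all genes higher) and 2 were lower in CD70Tg mice (Msmo1 and Cyp51, with 1.99% of all genes lower), which is 3 of 33 (9.09%) where 8.81% of all genes passed. In Tregs, 1 was higher (Scd1, with 3.94% of all genes higher) and 1 was lower (Dhcr7, with 3.46% lower), which is 2 of 33 (6.06%) where 7.4% of all genes passed. Passing in each subset was thus about as frequent among the members as among all genes. With an absolute log2 fold change over 1 asked as well, 1 member was left in Tregs (Scd1, with 3.6% of all genes) and 0 in Tconvs (4.65% of all genes). At an unadjusted p under 0.05 there were 8 members in Tconvs and 7 in Tregs, with 19.1% and 21.6% of all genes. With 2 libraries in each group, the change of the members that did not pass was bounded only loosely. In Tconvs the 95% interval of 29 of 30 lay within a 2-fold change either way, but that of 19 of 30 within a 1.5-fold change. In Tregs these were 31 of 31 and 15 of 31. For the rest, a 1.5-fold change lay inside the interval.

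**Figure D1:**
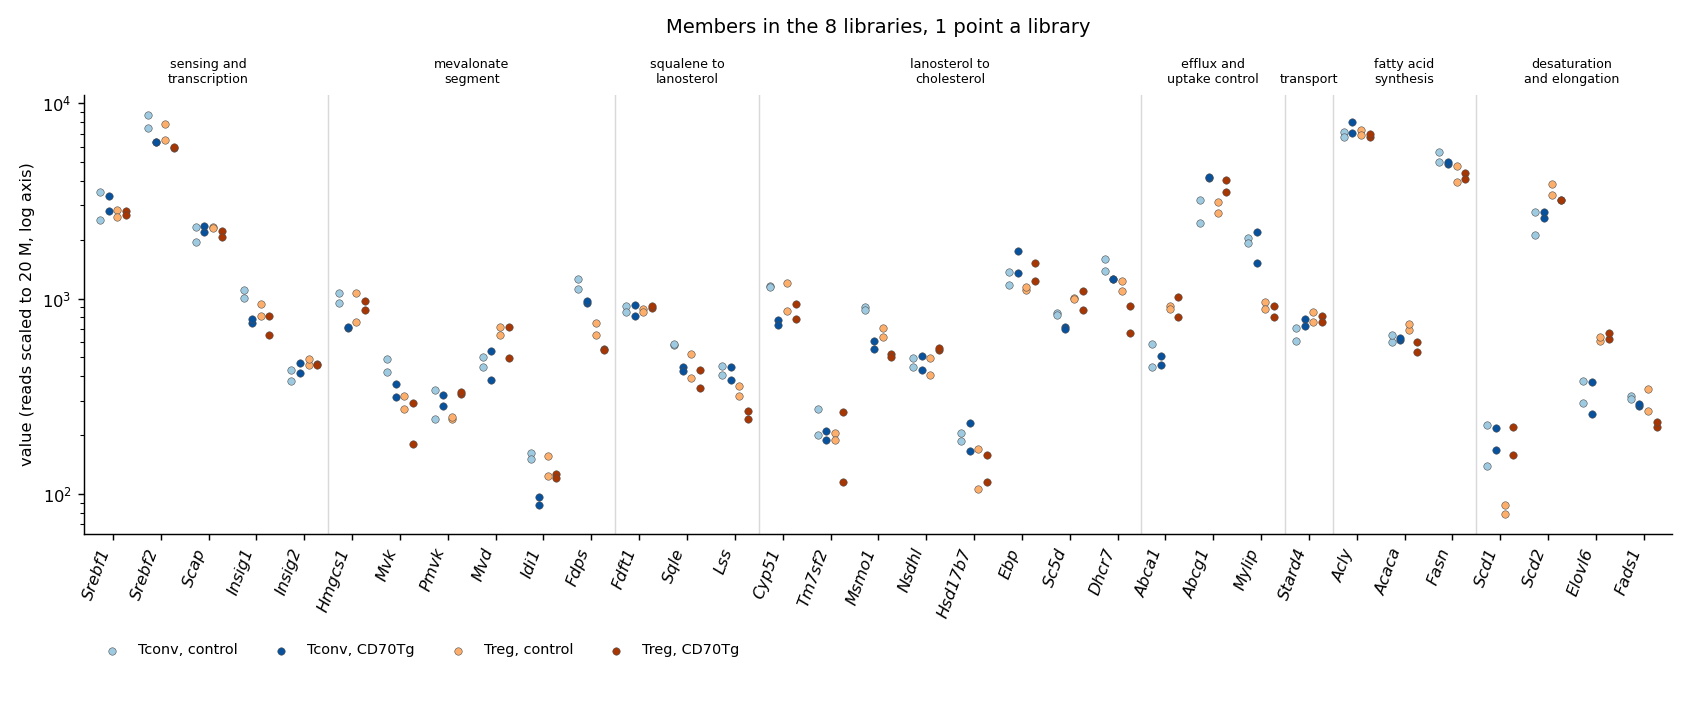
Values of the 33 members tested in the 8 libraries, on a log axis in reads scaled to 20 M, with 1 point for each library, colours for the 4 groups and grey lines between roles (Fads2, at 6 or less, is not drawn). The points of Msmo1 and Cyp51 in CD70Tg Tconvs (dark blue) lie under those of control Tconvs (light blue), and the CD70Tg Treg points of Scd1 (dark red) lie above the control Treg points.

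Where the direction of the values alone was counted, the 17 sterol synthesis enzymes leaned to lower values in CD70Tg Tconvs. In 9 of the 17 (52.9%), both CD70Tg libraries lay below both control libraries, a pattern seen in 21.4% of all genes tested, and in 0 of the 17 did they lie above, against 23.7% of all. The log2 fold change was below 0 in 14 of the 17 in Tconvs, against 48.9% of all genes, with a median of -0.24 against 0.007 for all. In Tregs the same enzymes were evenly split, with 4 of 17 below (23.5%, against 31.2% of all genes) and 4 above (23.5%, against 22.5%), and 11 of 17 log2 fold changes below 0 (57.5% of all genes), with a median of -0.17 against -0.053 for all. The levels of enzymes that share a pathway are not independent of each other, so that these counts describe the set and are no test of it.

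The summed level of the 17 enzymes, in reads scaled to 20 M, was 12555 and 11465 in control and 9922 and 10667 in CD70Tg Tconvs, a ratio of means of 0.857. The groups did not overlap. In Tregs the sum was 11125 and 9702 in control and 10175 and 9250 in CD70Tg mice, with a ratio of 0.933 and overlapping groups. The 8 fatty acid genes summed to 17029 and 15279 in control and 15971 and 17172 in CD70Tg Tconvs, which overlap, with a ratio of 1.03. In Tregs they summed to 17548 and 15984 in control and 15874 and 15885 in CD70Tg mice, without overlap, with a ratio of 0.947.

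**Figure D2:**
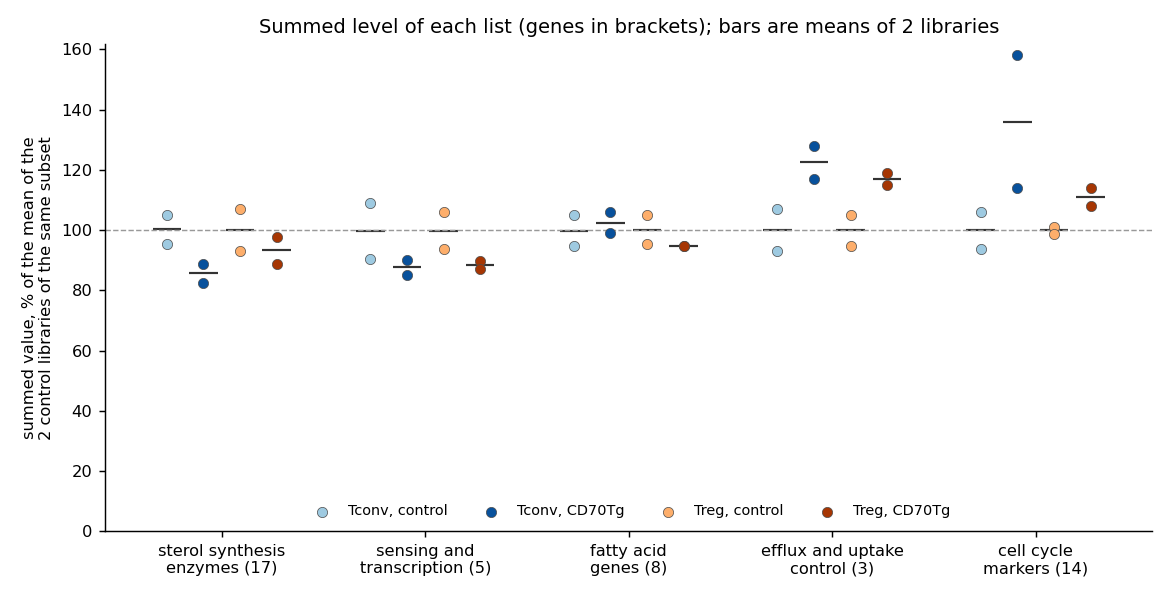
Summed value of each list in each library, as a percentage of the mean of the 2 control libraries of the same subset, with 1 point for each library and a bar at the mean of each group. The sterol synthesis enzymes stood at 82.6% and 88.8% in CD70Tg Tconvs, and the cell cycle markers at 114% and 158%.

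Markers of dividing cells moved the other way in Tconvs. The summed level of 14 cell cycle genes was 17148 and 15137 in control and 18419 and 25513 in CD70Tg Tconvs, and 8 of the 14 rose there (6.82% of all genes did), among them Mki67, with 254 and 344 in control and 493 and 1311 in CD70Tg libraries. In Tregs the sum was 17136 and 16725 in control and 18313 and 19314 in CD70Tg mice, and 1 of the 14 rose (3.94% of all genes did). The highest cell cycle sum was that of Tconv CD70Tg b, which is also the deepest of the 8 libraries. The part of division in the values of the sterol enzymes was not tested.

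Among the genes of sterol sensing and transcription, Srebf2, which encodes the SREBP that drives sterol synthesis, stood at 8762 and 7475 in control and 6356 and 6325 in CD70Tg Tconvs. In Tregs it stood at 7856 and 6498 in control and 5872 and 5943 in CD70Tg mice. Both subsets thus had lower values without overlap, but neither change passed, with log2 fold changes of -0.35 ± 0.12 (SE, adjusted p = 0.093) in Tconvs and -0.27 ± 0.12 (adjusted p = 0.20) in Tregs. Insig1, whose product retains the SREBP complex and which is itself an SREBP target, was at 1108 and 1007 in control and 752 and 790 in CD70Tg Tconvs. Its groups did not overlap, and the log2 fold change of -0.45 ± 0.15 had an adjusted p of 0.089. In Tregs the Insig1 values of 937 and 810 in control and 815 and 653 in CD70Tg mice overlapped.

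The estimates of the other genes of this group lay nearer to 0. Srebf1, which encodes the SREBP of fatty acid synthesis and is also an LXR target, had log2 fold changes of 0.05 in Tconvs and 0.01 in Tregs, with 95% intervals from -0.26 to 0.36 and from -0.30 to 0.31. Scap, the escort, had 0.09 and -0.11, and Insig2, a second retention protein, 0.12 and -0.05. None of the 5 genes passed in either subset (limma), while 2 in Tconvs and 1 in Tregs had an unadjusted p under 0.05 (19.1% and 21.6% of all genes). Under limma-voom on the estimated reads, Srebf2 and Insig1 passed in Tconvs and 0 of the 5 passed in Tregs.

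In the mevalonate segment, 4 of 6 enzymes had lower values without overlap in CD70Tg Tconvs (21.4% of all genes did), with a median log2 fold change of -0.37. None passed in the limma fit, while 2 had an unadjusted p under 0.05 (19.1% of all genes). Under limma-voom on the estimated reads, Hmgcs1 and Idi1 passed as lower, and with TMM or median-of-ratios factors Hmgcs1 did. Hmgcs1, which condenses acetyl groups into HMG-CoA, was at 1071 and 948 in control and 706 and 715 in CD70Tg Tconvs. The log2 fold change was -0.50 ± 0.17 (adjusted p = 0.076). In Tregs its values of 1073 and 762 in control and 972 and 870 in CD70Tg mice overlapped, with a change of 0.02 ± 0.17. In Tconvs both CD70Tg libraries of Hmgcs1 were low, while in Tregs both lay between the control libraries.

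Idi1, the isomerase that makes the building block for chain growth, was at 161 and 151 in control and 96 and 88 in CD70Tg Tconvs, at -0.73 ± 0.28 (adjusted p = 0.14). This was the largest estimate among the 17 enzymes in Tconvs. Of its stretches of 50 bases, 25.3% also stand in other annotated genes, most of them in Gm13502, so that reads may be shared. Mvk, the mevalonate kinase, was at 491 and 421 in control and 312 and 364 in CD70Tg Tconvs, at -0.43 ± 0.24 (adjusted p = 0.37). Fdps, which makes farnesyl diphosphate, was at 1258 and 1118 in control and 948 and 970 in CD70Tg Tconvs, at -0.31 ± 0.15 (adjusted p = 0.28). In Tregs it was at 748 and 648 in control and 554 and 544 in CD70Tg mice, at -0.34 ± 0.15 (adjusted p = 0.19). Fdps shares 26.7% of its exon length with Gm43738 on the same strand, and its values are uncertain to that extent.

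The remaining enzymes of the segment overlapped between CD70Tg and control Tconvs. Pmvk, the next kinase, had 0.06 ± 0.22 in Tconvs and 0.42 ± 0.22 in Tregs, and Mvd, the decarboxylase that follows, -0.06 ± 0.21 and -0.21 ± 0.21. For neither did a change pass (adjusted p between 0.30 and 0.93).

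Of the 3 enzymes from squalene to lanosterol, none passed (8.81% of all genes did in Tconvs and 7.4% in Tregs). At an unadjusted p under 0.05 there was 1 in Tconvs (19.1% of all genes) and 0 in Tregs (21.6%). Sqle, the epoxidase that introduces oxygen into squalene, was at 576 and 588 in control and 447 and 424 in CD70Tg Tconvs, a change of -0.41 ± 0.19 (adjusted p = 0.25) without overlap. In Tregs it was at 520 and 390 in control and 429 and 348 in CD70Tg mice, with overlap. Lss, which closes the rings, was at 355 and 316 in control and 241 and 267 in CD70Tg Tregs, a change of -0.39 ± 0.20 (adjusted p = 0.27) without overlap, and at -0.05 ± 0.20 in Tconvs. Fdft1, the squalene synthase, had -0.03 and 0.06, with 95% intervals from -0.32 to 0.27 in Tconvs and from -0.24 to 0.36 in Tregs, but 26.5% of its stretches of 50 bases stand in other genes, mainly in Ctsb, which overlaps it on the opposite strand.

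In the last segment, from lanosterol to cholesterol, Msmo1 and Cyp51 fell in Tconvs and Dhcr7 fell in Tregs in the limma fit, and 4 of its 8 enzymes were lower without overlap in CD70Tg Tconvs (21.4% of all genes were). Msmo1, the sterol-C4-methyl oxidase (chr8:64718139-64733792, minus strand, GRCm38), was at 905 and 869 in control and 603 and 550 in CD70Tg Tconvs. It fell by 34.9% (95% interval from -48.1% to -18.2%), with a log2 fold change of -0.62 ± 0.16 (limma, adjusted p = 0.017). In Tregs it was at 704 and 635 in control and 523 and 501 in CD70Tg mice, again without overlap, at -0.38 ± 0.16 (adjusted p = 0.16). The values of all 4 CD70Tg libraries lay below those of the 4 control libraries.

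Cyp51, which removes the methyl group at C14 of lanosterol (chr5:4081145-4104746, minus strand), was at 1160 and 1147 in control and 776 and 734 in CD70Tg Tconvs. It fell by 34.4% (95% interval from -48.5% to -16.6%), with a log2 fold change of -0.61 ± 0.16 (limma, adjusted p = 0.026). In Tregs the values of 1199 and 863 in control and 941 and 783 in CD70Tg mice overlapped, at -0.24 ± 0.16 (adjusted p = 0.42). Both calls were lost with no minimum value and with fewer libraries. Without control a, control b or CD70Tg b, the adjusted p of Msmo1 was 0.11, 0.084 and 0.11 and that of Cyp51 0.10, 0.11 and 0.14, while the log2 fold changes stayed between -0.65 and -0.55 for Msmo1 and between -0.62 and -0.57 for Cyp51.

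Dhcr7, which catalyses the last step to cholesterol (chr7:143823145-143848410, plus strand), was at 1223 and 1095 in control and 920 and 669 in CD70Tg Tregs. It fell by 32.1% (95% interval from -45.9% to -14.6%), with a log2 fold change of -0.56 ± 0.16 (limma, adjusted p = 0.039). In Tconvs it was at 1598 and 1388 in control and 1254 and 1257 in CD70Tg mice, without overlap, at -0.25 ± 0.16 (adjusted p = 0.46). The call in Tregs was lost without control a (adjusted p = 0.31), without control b (0.10) and without CD70Tg b, the lower of the CD70Tg libraries (0.32, with a change of -0.33). It was also lost under limma-voom on the estimated reads and with no minimum value.

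The other 5 enzymes of this segment did not pass in either subset. Sc5d, the C5 desaturase, was at 844 and 821 in control and 715 and 698 in CD70Tg Tconvs, at -0.24 ± 0.15 without overlap, and overlapped in Tregs. Ebp, the delta8-delta7 isomerase, had the highest change of the 17 enzymes in Tconvs, at 0.28 ± 0.15 with overlap, and 0.27 ± 0.15 in Tregs, where values of 1223 and 1517 lay above 1102 and 1152. Nsdhl, a decarboxylating dehydrogenase, was at 0.29 ± 0.18 in Tregs without overlap and at -0.01 ± 0.18 in Tconvs. Tm7sf2, a C14 reductase, varied most between the libraries of a group, with 262 and 115 in CD70Tg Tregs. Hsd17b7, a 3-keto reductase, was at 170 and 106 in control and 115 and 158 in CD70Tg Tregs.

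**Figure D3:**
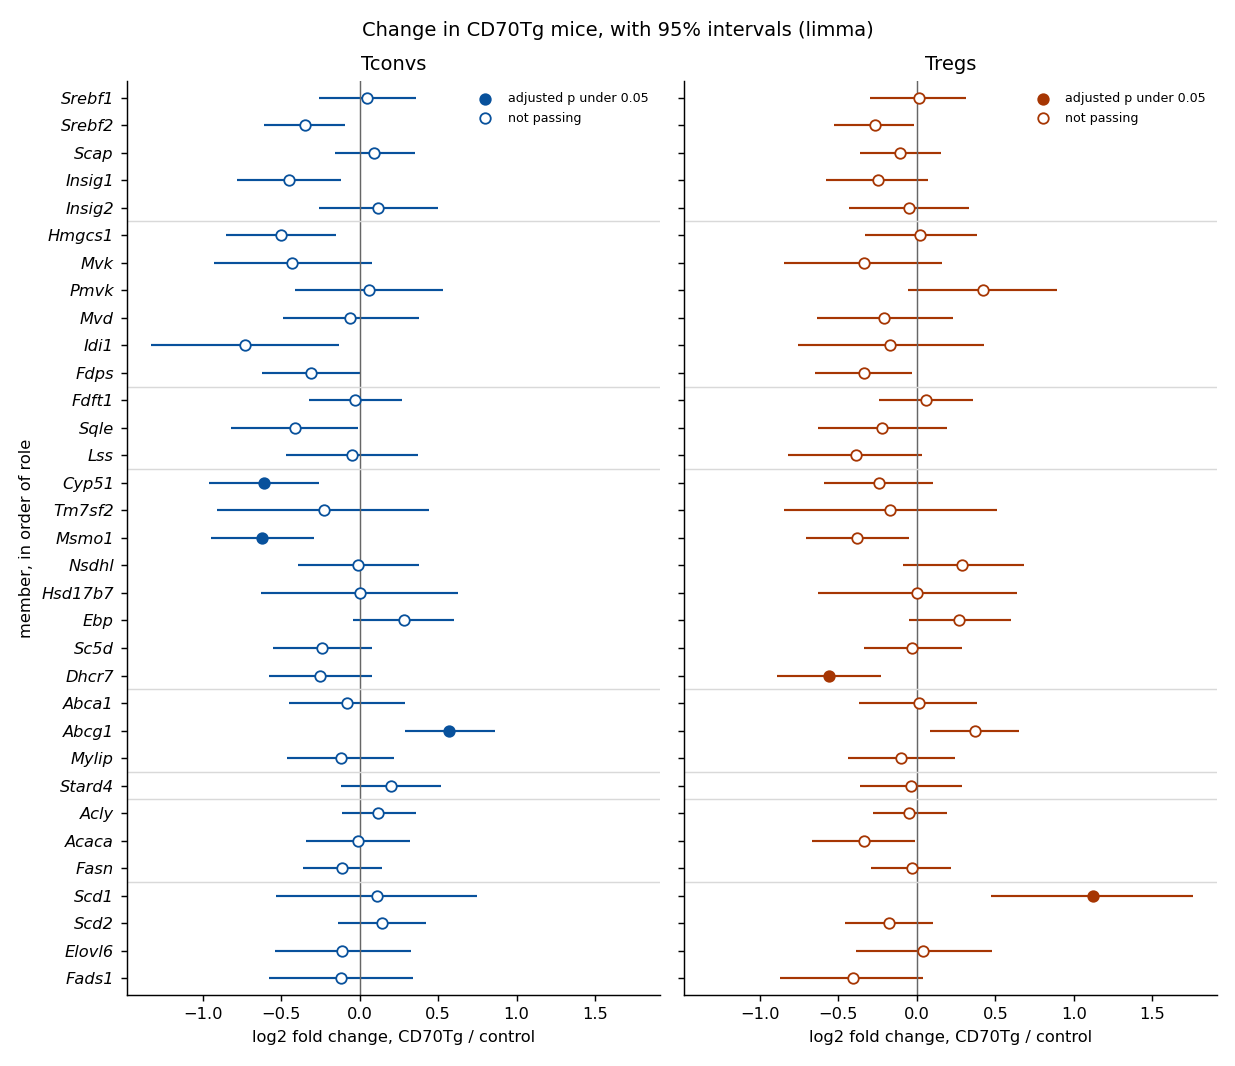
Log2 fold change of each member between CD70Tg and control mice in Tconvs (left) and Tregs (right), with 95% intervals from limma on log2(value + 5), filled points for an adjusted p under 0.05 and grey lines between roles. Filled are Cyp51, Msmo1 and Abcg1 in Tconvs and Dhcr7 and Scd1 in Tregs.

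On the side of sterol efflux, Abcg1, a pump that passes cholesterol to lipoproteins (chr17:31057675-31117988, plus strand), was at 3214 and 2442 in control and 4152 and 4191 in CD70Tg Tconvs. It rose by 48.8% (95% interval from 22.1% to 81.4%), with a log2 fold change of 0.57 ± 0.14 (limma, adjusted p = 0.011). In Tregs it was at 3130 and 2750 in control and 3532 and 4046 in CD70Tg mice, also without overlap, at 0.37 ± 0.14 (adjusted p = 0.12), and with the 4 Treg libraries fitted alone it passed there. The 4 CD70Tg libraries were all higher than the 4 control libraries. With no minimum value, Abcg1 did not pass in Tconvs. In Tconvs, the call was lost without control b (log2 fold change 0.38, adjusted p = 0.18) or without CD70Tg b (0.57, 0.064).

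The other LXR targets of the group did not pass in either subset. Abca1, the pump that loads lipid onto apolipoproteins, was at 447 and 584 in control and 459 and 510 in CD70Tg Tconvs, and at 913 and 881 in control and 1014 and 800 in CD70Tg Tregs. The groups overlapped in both subsets, with changes of -0.08 and 0.01 and 95% intervals from -0.45 to 0.29 and from -0.37 to 0.38. Mylip, the ligase, had -0.12 ± 0.16 in Tconvs and -0.10 ± 0.16 in Tregs, with overlap in both. Stard4, a sterol carrier, was at 705 and 609 in control and 787 and 722 in CD70Tg Tconvs, at 0.20 ± 0.15 (adjusted p = 0.56).

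Among macrophage and monocyte markers, whose cells use these pumps as well, the sum of 8 genes was 1907 and 2124 in control and 2588 and 4394 in CD70Tg Tconvs, and 4313 and 4414 in control and 5896 and 6263 in CD70Tg Tregs. Ccr2, which T cells also use, was the highest of the 8 in the CD70Tg libraries, and without it (an alternative chosen after seeing the data) the other 7 genes summed to 1576 and 1596 in control and 1173 and 1527 in CD70Tg Tconvs and to 2925 and 3004 in control and 3148 and 2951 in CD70Tg Tregs, where the groups overlap. Of the 7 of the 8 markers that were tested, 2 rose in Tconvs (Ccr2 and Cd68, with 6.82% of all genes higher) and 1 fell (Itgam, with 1.99% lower). In Tregs 2 rose (Ccr2 and Itgam, with 3.94% of all genes higher) and 1 fell (Csf1r, with 3.46% lower). The sum of 6 dendritic cell markers went from 72 and 138 to 195 and 345 in Tconvs and from 99 and 156 to 410 and 378 in Tregs. A different gene led each rise, and these 2 were the only ones tested. In Tconvs Itgax went from 31 and 57 to 101 and 236, while Flt3 and Siglech were lower. In Tregs Zbtb46 went from 25 and 27 to 209 and 191, while Itgax, at 49 and 84 in control and 74 and 104 in CD70Tg libraries, overlapped. None of these markers was at 0 in all libraries, and their part in the values of Abcg1 was not tested.

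None of the 3 enzymes of fatty acid synthesis proper passed in either subset (limma), with 1 of the 3 at an unadjusted p under 0.05 in Tregs (21.6% of all genes) and 0 in Tconvs (19.1%). Acly, the lyase that supplies cytosolic acetyl-CoA, stood at 7090 and 6749 in control and 7077 and 8006 in CD70Tg Tconvs, and at 7264 and 6844 in control and 6719 and 6938 in CD70Tg Tregs. The 95% intervals of its log2 fold change ran from -0.11 to 0.36 and from -0.28 to 0.19, among the narrowest of the members. Fasn, the fatty acid synthase, stood at 5627 and 5014 in control and 4861 and 4991 in CD70Tg Tconvs, at -0.11 ± 0.12, and at -0.03 ± 0.12 in Tregs. Acaca, the carboxylase that commits acetyl-CoA to this pathway, had -0.01 ± 0.16 in Tconvs. In Tregs it was at 694 and 740 in control and 533 and 599 in CD70Tg mice, at -0.34 ± 0.16 (adjusted p = 0.22), and 30.4% of its stretches of 50 bases stand in other annotated genes.

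Among the desaturases and elongases, Scd1, the delta-9 desaturase that makes monounsaturated fatty acids (chr19:44394455-44407879, minus strand), was at 88 and 79 in control and 220 and 158 in CD70Tg Tregs. It rose 2.17-fold, a log2 fold change of 1.12 ± 0.30 (95% interval from 0.47 to 1.76; limma, adjusted p = 0.033). In Tconvs it was at 226 and 139 in control and 168 and 218 in CD70Tg mice, with overlap, at 0.11 ± 0.30 (adjusted p = 0.91). The control Tregs were thus the only group in which both libraries lay below all other libraries. Their values rest on 18 reads each, and the call was lost without control a (adjusted p = 0.14), without control b (0.16) or without CD70Tg a (0.21, with a change of 0.88). It was also lost under limma-voom on the estimated reads and with no minimum value.

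Markers of other blood cells also differed between control and CD70Tg Tregs. The sum of 3 erythroid genes was 419 and 1144 in control and 2624 and 1655 in CD70Tg Tregs, and 2 of the 3, Hba-a1 and Hbb-bs, rose. The sum of 4 neutrophil markers went from 10 and 32 to 243 and 203, and the 1 tested, S100a9, was at 0 and 5 in control and 95 and 104 in CD70Tg Tregs, the only libraries through which it reached the minimum of 60, so that its call was fixed by that filter. B cell markers summed to 395 and 502 in control and 505 and 497 in CD70Tg Tregs. The sum of the CD8 genes Cd8a and Cd8b1 went from 317 and 417 to 660 and 631 in Tregs and from 720 and 681 to 1563 and 1590 in Tconvs. That of 3 NK cell genes went from 380 and 527 to 3657 and 3692 in Tregs and from 1147 and 1252 to 9699 and 11034 in Tconvs. Nkg7 alone made up nearly all of it in CD70Tg libraries, at 3657 and 3681 in Tregs and 9624 and 10964 in Tconvs. Of the 2 tested, Nkg7 rose in both subsets, while Klrb1c fell in Tconvs. Klrb1c was at 64 and 36 in control and 0 and 11 in CD70Tg Tregs, the latter under the value of 3 reads, and was tested there only through its Tconv values. None of these markers was at 0 in all libraries, but Ncr1 reached only 2 in Tconv CD70Tg b and was at 0 elsewhere, and Ly6g was at 11 or less. The part of the markers in the value of Scd1 and of the other members was not tested.

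Scd2, a relative of Scd1, did not pass, at 3858 and 3385 in control and 3187 and 3192 in CD70Tg Tregs (-0.18 ± 0.13, adjusted p = 0.47) and with overlap in Tconvs (0.14 ± 0.13). Elovl6, which extends 16-carbon chains, had 0.04 ± 0.21 in Tregs and -0.11 ± 0.21 in Tconvs. Fads1, the delta-5 desaturase, was at 267 and 346 in control and 220 and 234 in CD70Tg Tregs, at -0.41 ± 0.22 (adjusted p = 0.29), and at -0.12 ± 0.22 in Tconvs, in both without overlap.

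For no member did the response to the transgene differ between Tregs and Tconvs by the test of the difference itself. Under limma, 0 of 33 passed (1.02% of all genes did), 0 passed under limma-voom, and 2 had an unadjusted p under 0.05, against 10.7% of all genes. These were Scd1, with a difference of 1.01 ± 0.43 (Treg minus Tconv change, adjusted p = 0.40), and Hmgcs1, with 0.53 ± 0.23 (adjusted p = 0.43). The 95% intervals of both, from 0.10 to 1.91 and from 0.03 to 1.02, leave room for a large difference. For Abcg1 the difference was -0.21 ± 0.19, for Msmo1 0.24 ± 0.22, for Cyp51 0.37 ± 0.23 and for Dhcr7 -0.31 ± 0.22, all with adjusted p of 0.64 or more. That a member passed in 1 subset alone is therefore not shown to be particular to that subset.

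Tregs and Tconvs of the same genotype differed more than the genotypes did. In control mice, 9 of 33 members passed between the subsets (27.3%, against 45.8% of all genes), 4 higher (27.5% of all genes) and 5 lower in Tregs (18.4% of all). In CD70Tg mice 7 of 33 passed (21.2%, against 42.7% of all), 3 higher (22.6% of all) and 4 lower (20.1% of all). In both genotypes the share of members was below that of all genes. With TMM factors the split in control mice was 3 higher and 9 lower, and with median-of-ratios factors 3 and 8. These comparisons share their libraries with those above, and the values are given side by side.

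The subset differences that passed in both genotypes were those of Elovl6, Abca1, Mylip and Fdps. Elovl6 was at 378 and 293 in control Tconvs and 607 and 635 in control Tregs, higher by 0.89 ± 0.21 (adjusted p = 0.0023), and at 372 and 256 against 617 and 664 in CD70Tg mice, higher by 1.04 ± 0.21 (adjusted p = 0.00083). Abca1 was higher in Tregs by 0.81 ± 0.18 (adjusted p = 0.0015) in control and by 0.89 ± 0.18 (adjusted p = 0.00080) in CD70Tg mice. Mylip was at 2050 and 1928 in control Tconvs and 961 and 881 in control Tregs, a log2 fold change of -1.11 ± 0.16 (adjusted p = 3.8e-05), and at 2199 and 1514 against 920 and 800 in CD70Tg mice, of -1.08 ± 0.16 (adjusted p = 6.2e-05). Of the 7 macrophage and monocyte markers tested, 5 were higher in Tregs in each genotype, among them Csf1r with 449 and 417 in control Tconvs and 1500 and 1205 in control Tregs, and their part in the value of Abca1 was not tested. The efflux pump and the ligase, both LXR targets, thus differed between the subsets in opposite directions, without overlap in either genotype. Fdps was lower in Tregs, at -0.76 ± 0.15 (adjusted p = 0.00053) in control and -0.80 ± 0.15 (adjusted p = 0.00044) in CD70Tg mice.

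**Figure D4:**
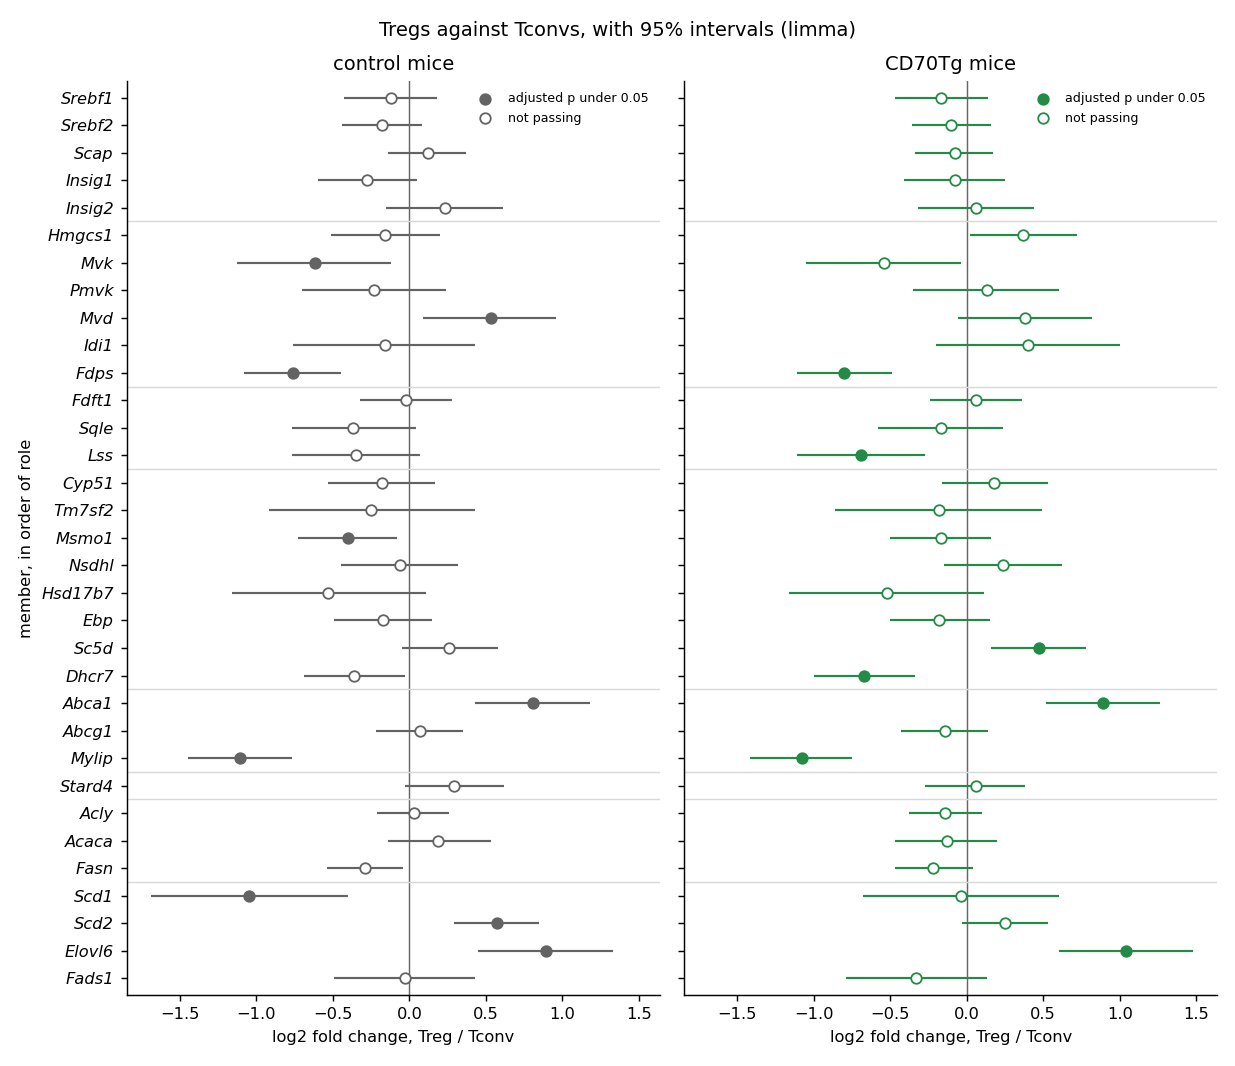
Log2 fold change of each member between Tregs and Tconvs in control (left) and CD70Tg (right) mice, with 95% intervals from limma on log2(value + 5), filled points for an adjusted p under 0.05 and grey lines between roles. Elovl6 and Abca1 lie to the right and Mylip and Fdps to the left of 0 in both panels.

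Other subset differences passed in 1 genotype. In control mice, Scd1 (-1.05 ± 0.30, adjusted p = 0.010), Mvk (-0.62 ± 0.24, adjusted p = 0.043) and Msmo1 (-0.40 ± 0.16, adjusted p = 0.043) were lower, and Scd2 (0.57 ± 0.13, adjusted p = 0.0023) and Mvd (0.53 ± 0.21, adjusted p = 0.045) higher in Tregs. The calls of Mvk, Mvd and Msmo1 were lost without any 1 of the 4 control libraries, and that of Scd1 without Tconv control a (adjusted p = 0.17) or Treg control b (0.063). Without Tconv control a or Treg control b, 2 members were lower, without Tconv control b 3.

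In CD70Tg mice, Lss (-0.69 ± 0.20, adjusted p = 0.011) and Dhcr7 (-0.67 ± 0.16, adjusted p = 0.0026) were lower and Sc5d was higher in Tregs (0.47 ± 0.15, adjusted p = 0.018). The calls of Lss and Sc5d were lost without Tconv CD70Tg b (adjusted p = 0.066 and 0.051) or Treg CD70Tg a (0.060 and 0.20), and that of Dhcr7 without Treg CD70Tg b (0.055). For Scd1 the subsets overlapped in CD70Tg mice, with 168 and 218 in Tconvs and 220 and 158 in Tregs. Of the 17 sterol enzymes, 15 had log2 fold changes below 0 between control Tregs and Tconvs (45.5% of all genes did) and 9 between CD70Tg Tregs and Tconvs (51.5% of all).

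To compare levels between genes, the values were divided by the length of the exons in kb. In control Tconvs, Acly (1310 per kb) and Srebf2 (1130 per kb) stood highest, followed by Mylip (615), Ebp (550) and Srebf1 (534), while Idi1 (44.5), Lss (39.7), Hsd17b7 (38.4), Scd1 (37.3) and Acaca (36.7) were the lowest of the members tested. Within the sterol pathway, Ebp was thus followed by Fdps (282), Cyp51 (261), Dhcr7 (257) and Mvd (255), and neighbours in this order were not all apart, since Dhcr7 and Mvd overlapped Fdps as well as Cyp51. In control Tregs, Acly (1340) and Srebf2 (999) again stood highest, followed by Scd2 (663). Srebf2 exceeded Srebf1 in each library of the 4 groups.

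Of 51 further genes of lipid metabolism, 50 were tested, of which 3 rose and 1 fell in Tregs (8.0% called, against 7.4% of all genes) and 5 rose and 2 fell in Tconvs (14%, against 8.81%), Dgat2 among the 5 at values under the minimum. The 9 genes of SREBP cleavage, degradation and LXR signalling gave 0 calls in either subset (limma). At an unadjusted p under 0.05 there were 0, with 19.1% of all genes in Tconvs and 21.6% in Tregs. Of 11 further sterol and isoprenoid genes, 2 fell in Tconvs, where 1.99% of all genes fell. These were Lipa, the lysosomal lipase, at -0.44 ± 0.12 (adjusted p = 0.025) and Fntb, a farnesyltransferase subunit, at -0.49 ± 0.14 (adjusted p = 0.029), both named after their values were seen. Of 10 genes of fatty acid oxidation, 1 rose in Tconvs (6.82% of all genes) and 1 fell in Tregs (3.46% of all). These were Acadl in Tconvs (0.63 ± 0.15, adjusted p = 0.013) and Cpt1a in Tregs (-0.49 ± 0.14, adjusted p = 0.042), also named after their values were seen.

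The further genes that passed with a change of more than 1 on the log2 scale were Pcyt1a and Dgat2, which both act in glycerolipid assembly. Elovl7, an elongase, had a larger estimate that did not pass, with 131 and 103 in control and 38 and 42 in CD70Tg Tconvs (-1.43 ± 0.52, adjusted p = 0.12). It was listed at 0 in the 4 Treg libraries and reached the minimum of 60 only through the control Tconvs, so that the filter favoured this direction (named after its values were seen). Pcyt1a, which makes CDP-choline for phosphatidylcholine, was at 428 and 473 in control and 1223 and 1099 in CD70Tg Tregs, and at 328 and 304 in control and 352 and 344 in CD70Tg Tconvs. It rose in Tregs by 1.36 ± 0.17 (limma, adjusted p = 0.00012) and was at 0.14 ± 0.17 in Tconvs (adjusted p = 0.76), and the difference between the subsets, 1.22 ± 0.24, passed (adjusted p = 0.020). The test of the difference was lost without Tconv CD70Tg b (adjusted p = 0.051), Treg control a (0.10), Treg control b (0.060) or Treg CD70Tg a (0.10), with a difference between 1.14 and 1.29.

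Dgat2, an acyltransferase of triglyceride synthesis, was at 224 and 149 in control and 471 and 506 in CD70Tg Tregs, and rose by 1.39 ± 0.31 (adjusted p = 0.011). In Tconvs it was at 21 and 21 in control and 52 and 52 in CD70Tg mice, with 1.13 ± 0.31 (adjusted p = 0.029), but these values lie under the minimum of 60 and the gene was tested there only through its Treg values. Its call in Tregs was lost without control b (adjusted p = 0.14), CD70Tg a (0.054) or CD70Tg b (0.063), and in Tconvs without any 1 of the 4 libraries (adjusted p between 0.064 and 0.13). Dgat1, the other acyltransferase of that step, rose in Tregs (0.80 ± 0.21, adjusted p = 0.029), and Lpin1 and Lpin2, phosphatidate phosphatases, and Mid1ip1, an activator of the carboxylase, rose in Tconvs by 0.60, 0.76 and 0.85 (these named after their values were seen).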

How the data were processed

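RNA-seq was performed on 2 libraries in each of 4 groups. According to the labels and methods, reads were trimmed with Trimmomatic 0.36, mapped to mm10 with STAR 2.5.3 and counted with HTSeq 0.9.1. The score values deposited by the authors are these counts, scaled so that a library holds 20 M, with fractions rounded up, so that totals (19963628 to 20164600) hold no depth. Reads per library were therefore estimated from the step between low values, less surely where it is near or under 1 (1.006 in Tconv control a, 0.601 in Tconv CD70Tg b). The 4131 rows named after genomic clones were left out, a choice already known from earlier work on these data. The columns named KO were read as the CD27+/- controls, which the sample labels call WT. No source used here explains the name KO, so every control value rests on this reading.

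Genes with at least 60 in 2 libraries were tested with limma 3.58.1 in R 4.3.3 (trend, 1 coefficient per group, all 8 libraries) on log2(value + 5). Fold changes are on that scale and understate those of low genes. Benjamini-Hochberg adjustment was made over the 12816 genes of each comparison, and all adjusted p-values are from limma. A count test was not used as the main test, although the study's methods name DESeq2, because the values are not counts. The prior degrees of freedom were 12.3. The procedure was tested on simulated data. Positions and exon lengths are from GENCODE M21 (GRCm38), promoters from RefSeq (GRCm38.p6).

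All members were named. Further lipid genes were named where they passed with over 1 of absolute log2 fold change in either subset, and others as stated. The members and lists were chosen with earlier results of these data known. Some genes of the pathway are not reported here. Alternatives were pseudocounts of 1 and 20, other minimum values, median-of-ratios and TMM factors, fits of the compared libraries alone, limma-voom on estimated reads, stricter thresholds, leaving out each library and, added after seeing the data, keeping the clone-named rows.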

Additional observations from a re-analysis of the deposited data

Results flagged for a closer look

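Pcyt1a was singled out because its response to the transgene differed between the subsets by a test of the difference itself. The change in Tregs exceeded that in Tconvs by 1.22 on the log2 scale (limma, adjusted p = 0.020), with both CD70Tg Treg libraries above both control Treg libraries. The call was lost when any 1 of 4 libraries was left out: Tconv CD70Tg b (adjusted p = 0.051), Treg control a (0.10), Treg control b (0.060) or Treg CD70Tg a (0.10).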

How the results depend on the processing

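No called result changed direction under any alternative. Of the log2 fold changes recomputed for single genes, 3216 kept their sign and their side of the threshold. A call was lost by 96 and gained by 26, and 127 changed sign without passing in either fit. The difference between the subsets' responses gave 0 members throughout. In Tregs, the 1 member higher became 0 with no minimum value, with limma-voom and at an adjusted p under 0.01, and 2 (Abcg1 beside Scd1) with the libraries of the comparison alone, and the 1 member lower became 0 with no minimum value, with limma-voom, at an adjusted p under 0.01 and with the fold threshold. In Tconvs, the 1 member higher became 0 with no minimum value, at an adjusted p under 0.01 and with the fold threshold. The 2 members lower became 0 under these, 4 with TMM or median-of-ratios factors (Insig1 and Hmgcs1 added) and 6 with limma-voom (Srebf2, Insig1, Hmgcs1, Idi1, Cyp51 and Msmo1). Between subsets in controls, the 4 higher became 0 with the fold threshold, and the 5 lower became 9 with TMM, 8 with median-of-ratios factors, and 2 with the fold threshold or at an adjusted p under 0.01. In CD70Tg mice, the 3 higher and the 4 lower each became 1 with the fold threshold. The cause of the changes with the minimum value, the factors and limma-voom was not tested. With 1 library left out, the counts were 0 to 1 higher and 0 to 1 lower in Tregs, 0 to 1 higher and 0 to 2 lower in Tconvs, 3 to 4 higher and 2 to 6 lower between subsets in controls, and 2 to 4 higher and 3 to 4 lower in CD70Tg mice, where the lone library of a group is assumed to vary like the others. No paired analysis was possible because the numbers in the column names match no replicate number of the sample titles. The columns and the samples run through the groups in the same order. No source used here states that this order gives the replicate numbers, and a fit with pairs assumed from it was not run. The 1.92 M reads of the shallowest Treg library limit what can be seen for members under a value of about 100.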
